A study of Mus musculus with 18 samples.

Results

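The comparison described here is that of 3 mouse livers labelled BH-HF-KO with 3 labelled BH-HF-WT, 6 of the 18 libraries of the series, chosen by their labels alone and described over 13958 tested genes of 52636 in the deposited table. All 6 mice were 45 weeks old, had been given tamoxifen (10 mg/mL, injected on 5 days at 8 weeks of age) and had eaten a high-fat diet for 35 weeks from the age of 10 weeks. Their strain label is the same for KO and WT and names 3 alleles: Arntltm1Weit and Hnf4atm1.1Gonz, which are alleles made for conditional deletion of part of each gene, and Albtm1(cre/ERT2)Mtz, a tamoxifen-activated Cre recombinase placed at the albumin gene and so driven in hepatocytes. The sources used here do not say what set the WT mice apart from the KO mice. The nearest comparison in the series is BH-KO with BH-WT, 3 livers each, of the same strain label, sampled at the age of 10 weeks after the same tamoxifen course and with no high-fat diet in their label. Age, diet and the time since tamoxifen differ together between both pairs of groups and cannot be told apart. All livers were frozen, taken at ZT8 (8 hours after lights on in the usual notation) and sequenced as total RNA. The remaining 6 livers (H-WT and H-KO, 10 weeks, a line with the Hnf4a allele and without the Arntl allele) entered the fit only.

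ARNTL, also called BMAL1, pairs with CLOCK or NPAS2 and binds E-boxes, short DNA elements from which it activates its own repressors (the Per and Cry genes), the nuclear receptors Nr1d1 and Nr1d2, and output factors such as Dbp and Tef. NR1D1 and NR1D2 in turn repress Arntl, Npas2, Cry1 and Clock. When the activator is missing, the first set of genes, apart from Cry1, is known to go down and the second to go up. Cry1 is in both sets and is read here with the second. HNF4A is a nuclear receptor that holds hepatocytes in their mature state and activates genes of lipoprotein, bile acid, drug and nitrogen metabolism. A high-fat diet fed for months is widely used to bring fat into the mouse liver, where SREBF1, the enzymes of fatty acid synthesis and the proteins of lipid droplets govern storage.

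The 6 libraries held 7569499 to 9816124 counts each, with scaling factors of 0.83 to 0.90. Levels are in CPM, the usual count relative to the scaled library total, and values are listed in the order of replicates 1, 2 and 3. A count of 0 allowed up to 3 counts, or 0.34 to 0.443 CPM, for counting error only. Hepatocyte markers were high in every library, with Apoa1 (an apolipoprotein) at 7557 to 9521 CPM in BH-HF-KO and 7797 to 11272 CPM in BH-HF-WT, and Cps1 (the entry enzyme of the urea cycle) at 4972 to 5956 and 5499 to 6760 CPM. Libraries of the same group correlated over log2 CPM at 0.970 to 0.979 in both BH-HF groups, and libraries of different BH-HF groups at 0.969 to 0.983, so the ranges overlapped. BH-HF-KO replicate 2 stood apart by its acute phase genes and BH-HF-WT replicate 1 by its macrophage and neutrophil genes, with values given below. They were not the only ones. The first principal component of the 6 high-fat libraries held 28.6% of their variance. On it BH-HF-KO replicate 3 (32.2) and BH-HF-WT replicate 2 (27.6) lay opposite BH-HF-KO replicate 2 (-27.8) and BH-HF-WT replicate 1 (-27.5). Each side thus held a library of each group, and the cause was not tested. Among the libraries of the 10-week comparison, BH-KO replicate 1 stood apart from BH-KO replicates 2 and 3 (correlation as low as 0.911, scaling factor 0.88 against 1.26 and 1.30). Nothing in the labels says more of the replicates than their number, so p-values measure the spread between these samples.

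**Figure D1:**
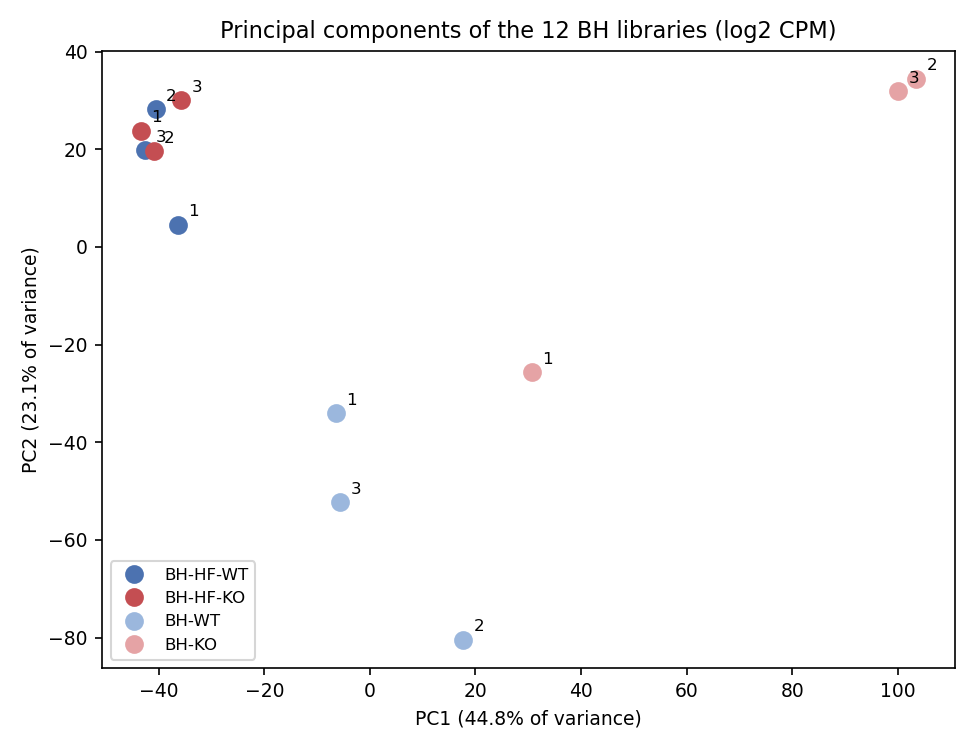
Principal components of log2 CPM in the 12 BH libraries, with 1 point per library and its replicate number beside it; the axes hold 44.8% and 23.1% of the variance. The 3 BH-HF-KO and 3 BH-HF-WT libraries lie together at the upper left, while BH-KO replicates 2 and 3 lie far to the right of the BH-WT libraries and BH-KO replicate 1 between them.

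No gene of the 13958 passed the test between BH-HF-KO and BH-HF-WT (0% called at an adjusted p under 0.05 in the quasi-likelihood F-test of edgeR, adjusted by Benjamini-Hochberg), and every adjusted p was 1. At an unadjusted p under 0.05 there were 490 genes (3.51%), 235 higher (1.68%) and 255 lower (1.83%) in BH-HF-KO. The counts given for lists below are to be read beside these shares. The KO and WT values did not overlap in 1446 genes (10.4%), of which 792 (5.67%) were higher and 654 (4.69%) lower. For 9196 genes (65.9%) the 95% interval of the log2 fold change lay within a 2-fold difference in either direction. For the others a difference of that size or more was not excluded at this depth and replication. By the same test, 3990 genes (28.6%) passed between BH-KO and BH-WT at 10 weeks. The fit of the 6 libraries alone also called 0 genes with edgeR and with limma-voom, and DESeq2 on all 18 libraries called 0. DESeq2 on the 6 libraries alone called 15, which are named below. Without BH-HF-KO replicate 2 a single gene passed, Slc39a4, a zinc importer chosen here after its values were seen. Slc39a4 had 9.44, 29.2 and 6.46 CPM in BH-HF-KO and 30.9, 39.1 and 35.8 CPM in BH-HF-WT, with replicate 2 the highest of the KO libraries. Its log2 fold change was -1.23 ± 0.40 (SE) with all libraries and -2.16 ± 0.27 without that replicate (adjusted p = 0.0141).

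The targeted genes were taken over the whole gene, which checks a deletion of part of it weakly. Hnf4a (ENSMUSG00000017950, chr2:163506808-163572910 in mm10) had 844, 978 and 820.1 CPM in the libraries labelled BH-HF-KO and 768, 783 and 840.2 CPM in BH-HF-WT. The groups overlapped, and the 95% interval of the log2 fold change ran from -0.30 to 0.59. Arntl (ENSMUSG00000055116, chr7:113207465-113314126) had 0.885, 2.54 and 1.36 CPM in BH-HF-KO and 1.03, 1.37 and 2 CPM in BH-HF-WT, again overlapping, against 17.4, 22.3 and 24.1 CPM in BH-KO and 0.421, 0.735 and 0.799 CPM in BH-WT. The KO effect on Arntl was 0.13 ± 0.43 in the high-fat comparison and 5.00 ± 0.46 at 10 weeks, and the difference between these effects was -4.87 ± 0.62 (adjusted p = 0.000298). The Arntl level thus goes against the label of the BH-HF-KO libraries if that of BH-KO is taken as the mark of the deletion, and every direction drawn below is one between libraries labelled BH-HF-KO and BH-HF-WT. Albumin is the exception among the genes named by the strain label. Alb (ENSMUSG00000029368, chr5:90460897-90476602), the gene that carries the Cre, had 29893, 33670 and 41395 CPM in BH-HF-KO and 74393, 90866 and 71912 CPM in BH-HF-WT, with no overlap. Its log2 fold change was -1.18 ± 0.36 (unadjusted p = 0.0049, not passing), beside -1.77 ± 0.36 at 10 weeks (adjusted p = 0.00274), where BH-KO had 42215, 18841 and 13807 CPM and BH-WT 97676, 84828 and 73175 CPM. The difference between both effects was 0.60 ± 0.50 (adjusted p = 0.507). Alb falls outside the rule for named genes and was chosen after its values were seen.

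The core clock list was read next, since it holds the direct targets of ARNTL. To show the element in question, the 250 bases before the start site are printed for 3 of its members, Ciart, Bhlhe41 and Tef, whose windows hold the E-box CACGTG (in capitals). They come from RefSeq (GRCm38.p6) and lie at chr3:95882229-95882478 (minus strand), chr6:145865421-145865670 (minus strand) and chr15:81802423-81802672 (plus strand).
Ciart: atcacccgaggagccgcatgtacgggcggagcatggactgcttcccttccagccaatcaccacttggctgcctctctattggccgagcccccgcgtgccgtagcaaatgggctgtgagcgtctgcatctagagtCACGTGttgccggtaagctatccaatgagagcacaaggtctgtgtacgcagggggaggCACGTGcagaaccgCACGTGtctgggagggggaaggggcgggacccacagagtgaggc
Bhlhe41: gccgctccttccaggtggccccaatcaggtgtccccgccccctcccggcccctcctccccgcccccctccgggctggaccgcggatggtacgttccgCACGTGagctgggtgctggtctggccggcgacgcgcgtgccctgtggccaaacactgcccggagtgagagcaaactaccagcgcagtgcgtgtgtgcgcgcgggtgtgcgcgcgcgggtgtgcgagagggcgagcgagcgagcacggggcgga
Tef: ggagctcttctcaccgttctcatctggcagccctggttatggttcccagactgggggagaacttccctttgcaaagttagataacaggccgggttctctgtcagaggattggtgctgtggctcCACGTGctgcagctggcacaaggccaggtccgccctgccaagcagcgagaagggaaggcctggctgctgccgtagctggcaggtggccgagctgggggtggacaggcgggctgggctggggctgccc
Ciart, a repressor of the activator complex, has 3 such elements, beginning 116, 58 and 44 bases before the start site. Bhlhe41, an E-box-binding repressor, has 1, beginning 153 bases before it, and Tef, an output factor, has 1, beginning 127 bases before it. The motif is its own reverse complement, so a match counts for both strands. Of 24 clock genes 18 had a promoter window and 5 of these (Bhlhe41, Ciart, Cry1, Per1 and Tef) held the motif, beside 6.86% of the 27025 genes with a window. A match is a description of these letters and no evidence of binding.

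Among 24 clock genes, all tested, none passed in the high-fat comparison, 2 were higher at an unadjusted p under 0.05 and none lower (0 to 2 in each direction over 6 fits that each left out 1 high-fat library), and the median log2 fold change was -0.05, beside 0.00 over all tested genes. At 10 weeks 18 of the 24 passed, 7 higher and 11 lower, beside 14.3% of all tested genes in each direction. The activators come first. Npas2, the alternative partner of ARNTL, had 1.03, 0.267 and 1.25 CPM in BH-HF-KO and 0, 0.125 and 0.429 CPM in BH-HF-WT (log2 fold change 2.19 ± 1.05, unadjusted p = 0.0276), levels near the floor that overlapped, against 47.8, 37.9 and 40.4 CPM in BH-KO. Clock, the main partner, had 41.6, 46.3 and 39.9 CPM and 29.6, 45.2 and 36.2 CPM, against 117, 88.1 and 91.1 CPM in BH-KO. Both genes stood lower in each BH-HF-KO library than in any BH-KO library. Among the repressors, Nr1d1 (ENSMUSG00000020889, chr11:98767932-98775333) had 62.6, 81.7 and 67.1 CPM in BH-HF-KO and 55.7, 22.1 and 55.3 CPM in BH-HF-WT. It was higher in each KO library than in any WT library (log2 fold change 0.67 ± 0.27, unadjusted p = 0.0279), with the lowest value in BH-HF-WT replicate 2, and its 95% interval of 0.09 to 1.25 lies above 0. At 10 weeks Nr1d1 fell from 120.4 ± 8.91 to 6.24 ± 0.682 CPM (mean ± SD, n = 3 each). Nr1d2, its close relative, had 181, 197 and 183 CPM in BH-HF-KO and 193, 155 and 210.1 CPM in BH-HF-WT, against 26.1, 23.1 and 28.8 CPM in BH-KO, and its interval in the high-fat comparison was -0.30 to 0.32.

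Ciart had 34.4, 23.2 and 54.3 CPM in BH-HF-KO and 54.4, 50.7 and 34.6 CPM in BH-HF-WT, against 1.19, 3.33 and 4.67 CPM in BH-KO and 38.3, 21.9 and 34.8 CPM in BH-WT. Bhlhe41 had 9.74, 9.61 and 8.62 CPM and 12.3, 5.12 and 7.73 CPM in the high-fat groups, against 1.93, 0.38 and 0.0881 CPM in BH-KO. For both genes the high-fat groups overlapped and each BH-HF-KO library lay above every BH-KO library. Per3, a period gene, had 118, 78.1 and 82.8 CPM and 91.5, 114 and 108 CPM in the high-fat groups, against 9.06, 22.5 and 17.9 CPM in BH-KO. Cry1, a repressor kept low by NR1D1, had 14, 4.14 and 16.9 CPM and 9.62, 20.5 and 11 CPM, against 84.2, 111 and 126 CPM in BH-KO, with BH-HF-KO replicate 2 the lowest of the 6 high-fat libraries. Per1 (-0.43 ± 0.22), Per2 (-0.29 ± 0.21), Cry2 (-0.04 ± 0.13) and Bhlhe40 (-0.35 ± 0.25) had negative log2 fold changes in the high-fat comparison, all with intervals that include 0.

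Dbp, an activator of detoxification genes, had 119, 99.3 and 92.1 CPM in BH-HF-KO and 119, 79.8 and 121 CPM in BH-HF-WT, against 2.67, 6.75 and 8.11 CPM in BH-KO. Tef had 319.6, 260.5 and 299.6 CPM and 311, 332 and 336 CPM, against 75.7, 65 and 65.3 CPM in BH-KO. The intervals of both (-0.64 to 0.55 and -0.48 to 0.17) exclude a halving, which lies at -1 on this scale. Usp2, a deubiquitinase with a daily rhythm, had a log2 fold change of -0.45 ± 0.27. Rora, Hlf, Nfil3, Wee1, Csnk1d and Csnk1e lay between -0.25 and 0.09.

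The difference between the high-fat and the 10-week KO effect was then tested for each gene. Of the 24 clock genes 14 passed (edgeR's quasi-likelihood test, adjusted p under 0.05), beside 6.1% of all tested genes, 9 with a more positive effect in the high-fat pair and 5 with a more negative one. The differences were 4.95 ± 0.40 for Nr1d1 (adjusted p = 1.44e-05), 4.44 ± 0.41 for Dbp (adjusted p = 5.29e-05), 4.84 ± 0.72 for Bhlhe41 (adjusted p = 0.00114) and 2.97 ± 0.60 for Ciart (adjusted p = 0.0118). They were -3.46 ± 0.53 for Cry1 (adjusted p = 0.00244), -1.34 ± 0.28 for Clock (adjusted p = 0.0116) and -5.91 ± 1.52 for Npas2 (adjusted p = 0.0467). The more positive ones were Per3, Cry2, Nr1d1, Nr1d2, Dbp, Tef, Bhlhe41, Ciart and Usp2, and the more negative ones included Arntl, Clock, Npas2 and Cry1. Without BH-KO replicate 1, 15 of the 24 passed, beside 21.1% of all tested genes in that fit. In 12 fits that each left out 1 BH library 10 of these 13 named genes kept their call every time. The exceptions were Npas2 and Cry2, each lost in 8 of the 12 fits, and Usp2, lost in 6. Per1 (0.30 ± 0.32, adjusted p = 0.62) and Hnf4a itself (0.54 ± 0.30, adjusted p = 0.291) were among the genes that did not pass this test.

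**Figure D2:**
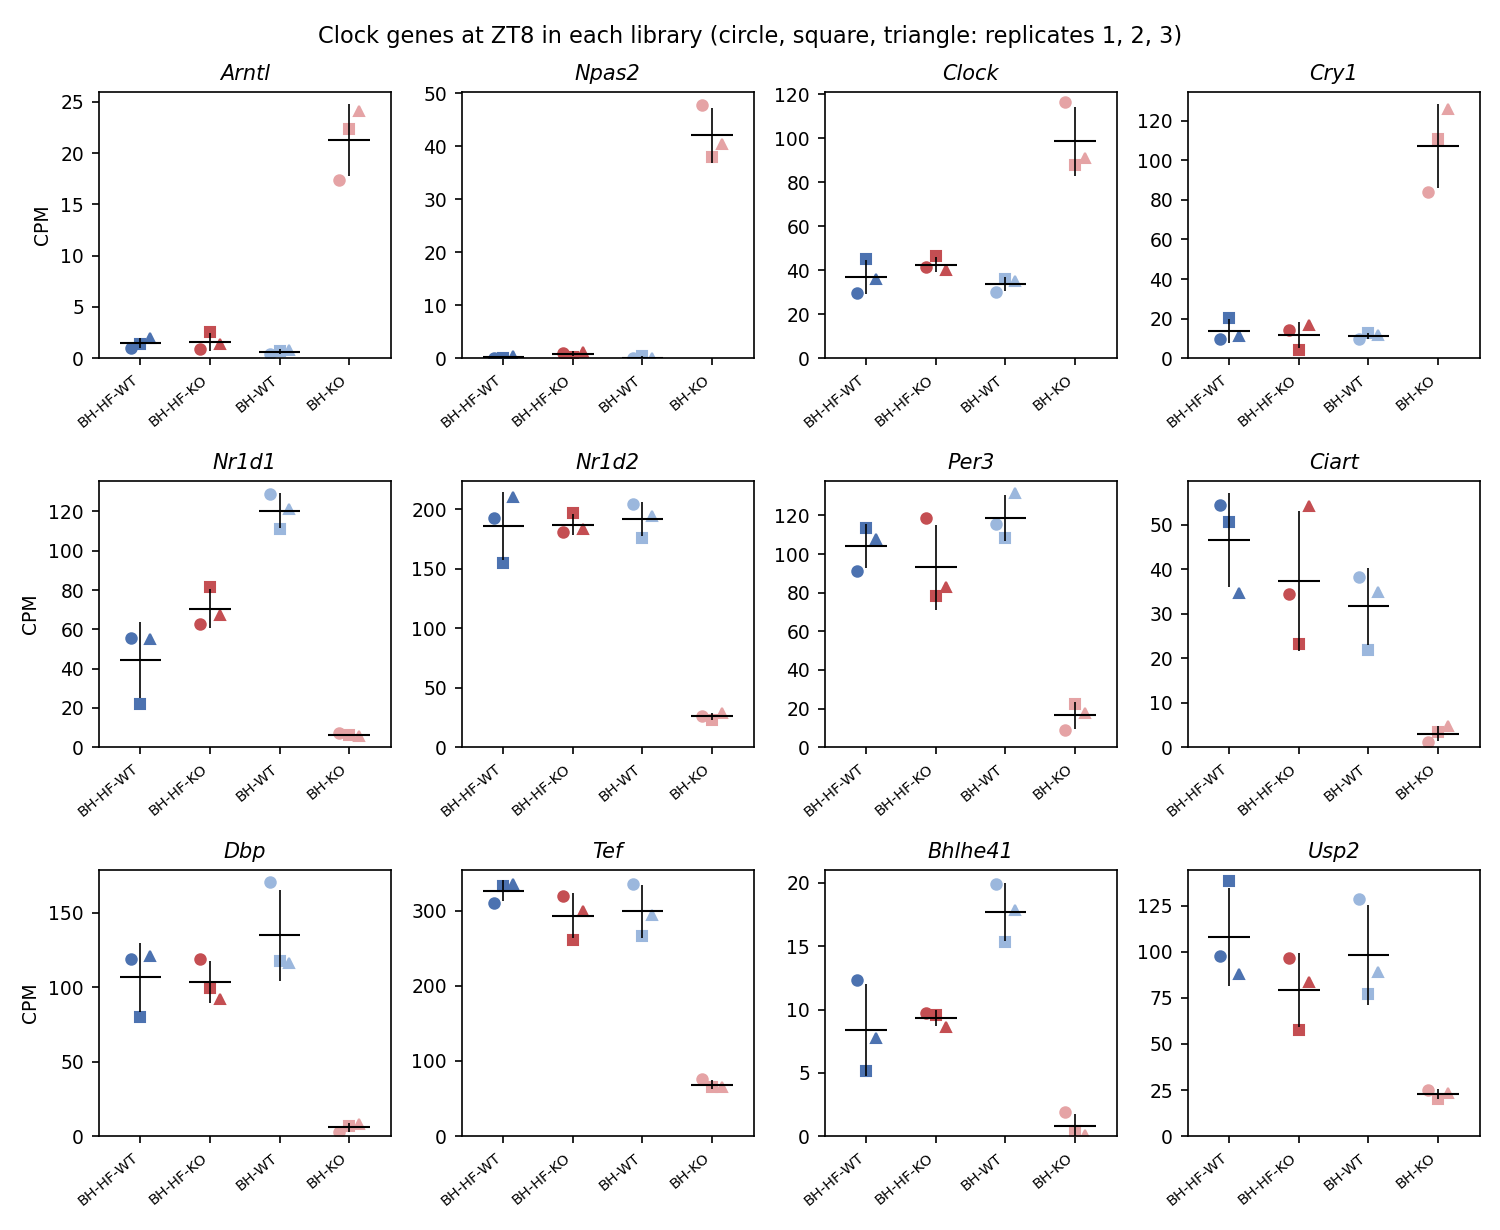
Expression (CPM, linear axes from 0) of 12 clock genes in the 4 BH groups, with 1 symbol per library, a line at the group mean and a bar of 1 SD (n = 3), cut at 0. In each panel the 3 BH-KO libraries lie apart from the other 9, above them for Arntl, Npas2, Clock and Cry1 and below them for the rest.

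The wider set of genes that passed at 10 weeks was followed in the high-fat comparison. The 2 comparisons share no library. Over all tested genes 1.68% were higher and 1.83% lower at an unadjusted p under 0.05 in the high-fat comparison, and 49.4% lay above 0. Of the 2000 genes that rose at 10 weeks, 62% lay above 0 in the high-fat comparison (median 0.05), 75 higher and 21 lower at an unadjusted p under 0.05. Of the 1990 that fell, 67.3% lay below 0 (median -0.08), 16 higher and 82 lower at that threshold. Of these genes 740 rose and 1053 fell at least 2-fold in BH-KO against BH-WT, with median log2 fold changes of 1.64 and -1.76. In the high-fat comparison none of either set passed. The 740 rises had a median of 0.01, with 50.8% above 0, and the 1053 falls a median of -0.15, with 69.5% below 0, beside 0.00 and 50.3% below 0 over all tested genes. The median of the falls had an SD of 0.10 over the 3 KO libraries. Genes whose effects differed numbered 851 (6.1% of all tested), 481 with the more positive effect in the high-fat pair (3.45%) and 370 with the more negative one (2.65%). The count rests heavily on single libraries: without BH-KO replicate 1 it was 3046, and without any other 1 of the 12 BH libraries 353 to 691.

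**Figure D3:**
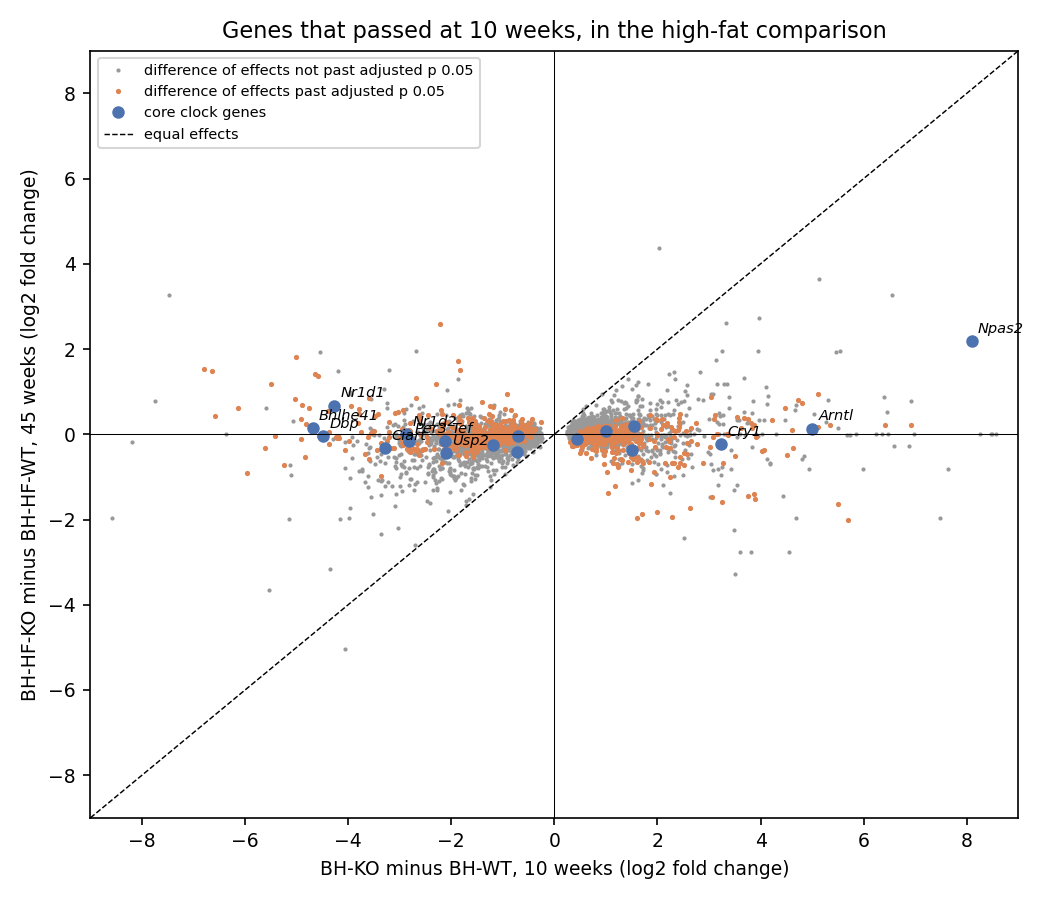
Log2 fold change at 45 weeks on high-fat diet (vertical) against that at 10 weeks (horizontal) for the genes that passed at 10 weeks, with 1 gene outside the drawn range of 9 on either axis left out; orange marks genes whose 2 effects differed. The cloud lies flat along the horizontal axis and not on the dashed line of equal effects, and the blue clock genes, up to 8.10 in size at 10 weeks (Npas2), lie between -0.45 and 2.19 in the high-fat comparison.

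By the naming rule the largest of these differences were as follows. The more negative effects belonged to genes that rose in BH-KO at 10 weeks and were lower in all 6 high-fat livers than in any BH-KO liver. Cdkn1a, the p21 inhibitor of the cell cycle, had 2.95, 1.47 and 3.4 CPM in BH-HF-KO and 1.8, 4.12 and 0.716 CPM in BH-HF-WT, against 95.6, 136 and 146 CPM in BH-KO (difference -6.71 ± 0.67, adjusted p = 5.29e-05). Gstm3, a glutathione transferase, had 25.5, 14 and 14.6 CPM and 21.8, 16.5 and 11.9 CPM in the high-fat groups, against 319.6, 1178 and 997 CPM in BH-KO, where replicate 1 was the lowest (difference -4.50 ± 0.60, adjusted p = 0.00104). Nckap5 (-7.14), Cyp2c55 (-5.41), Grhl1 (-4.95) and Gria3 (-4.94), the last a glutamate receptor subunit, completed this side with Arntl and Npas2. Cyp2c55 and Gria3 each lost the call in 9 of the 12 fits that left out 1 library. On the other side stood Saa2, Rian, Meg3 and 5 genes of the Mup cluster. Meg3 and Rian, noncoding RNAs of one imprinted cluster, had 30.4, 8.14 and 19.5 and 19.6, 6.54 and 12 CPM in BH-HF-KO, and 17.6, 0.625 and 4.29 and 11.8, 0.25 and 2 CPM in BH-HF-WT, with the highest WT value of both in replicate 1. Their differences were 5.95 ± 1.17 and 6.06 ± 1.18 (adjusted p = 0.0123 and 0.0105), and both fell at 10 weeks. Mup16, which codes for a major urinary protein, had 346, 296 and 155 CPM in BH-HF-KO and 52.5, 84.4 and 141 CPM in BH-HF-WT, without overlap, but did not pass in that comparison (log2 fold change 1.52 ± 0.77). The differences of Mup11, Mup15, Mup16, Mup17 and Mup-ps13 ran from 6.68 to 8.32. Mup genes are near-identical copies, so how reads were shared among them is uncertain, and Mup15 and Mup17 lost the call in 9 and 8 of the 12 fits that left out 1 library.

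Genes that depend on HNF4A were examined as a group because Hnf4a is the other targeted gene. Of 40 such liver genes, all tested, none passed, none was higher and 1 lower at an unadjusted p under 0.05, and the median log2 fold change was 0.01. At 10 weeks the median was -0.93. Past the adjusted threshold 7 of the 40 were lower and 1 higher, beside 14.3% of all tested genes in each direction. The difference of effects passed in 1 of the 40 (beside 6.1% of all tested genes), and in 24 without BH-KO replicate 1 (beside 21.1%). Their summed level was 52219 to 56587 CPM in BH-HF-KO and 53991 to 60145 CPM in BH-HF-WT, which overlap. The lower gene was Abcg5, one partner of a sterol exporter, with 205, 179 and 166 CPM in BH-HF-KO and 224, 239 and 263 CPM in BH-HF-WT (log2 fold change -0.40 ± 0.16, unadjusted p = 0.025). Its partner Abcg8 had 277, 216 and 224 CPM and 287, 280.3 and 339 CPM, also without overlap (-0.34 ± 0.23). Slco1b2, a hepatocyte uptake carrier, was at 1730 to 1876 CPM in BH-HF-KO and 1363 to 1661 CPM in BH-HF-WT (0.23 ± 0.25). Of 21 hepatocyte transcription factors none passed and 2 (9.52%) were lower at an unadjusted p under 0.05, beside 1.83% of all tested genes. Cebpb, a factor of the acute and fat-storage responses, had 55.3, 56.4 and 31.3 CPM in BH-HF-KO and 81.3, 76.4 and 65.4 CPM in BH-HF-WT (-0.64 ± 0.25, unadjusted p = 0.0221). Esrra, a nuclear receptor of mitochondrial genes, had 30, 23.1 and 25.1 CPM and 31.9, 33.2 and 35.5 CPM (-0.37 ± 0.15, unadjusted p = 0.0277).

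**Figure D4:**
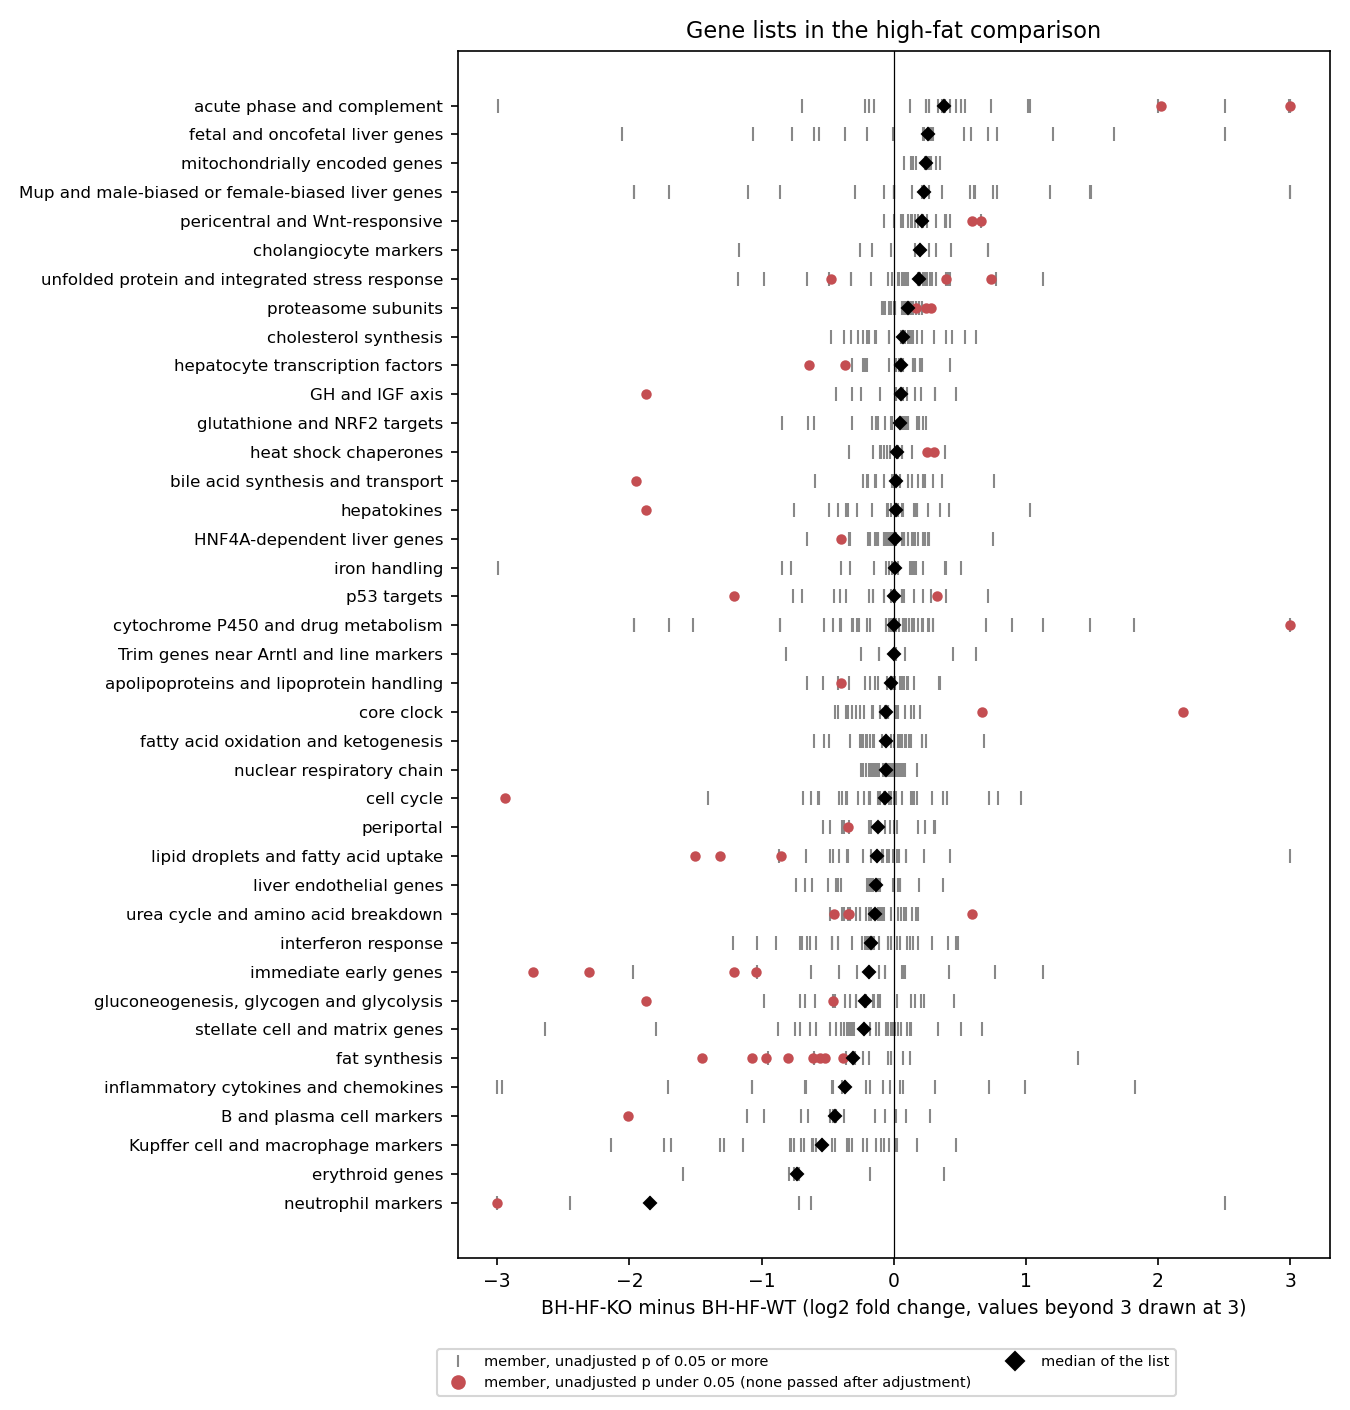
Log2 fold change of the tested members of 39 gene lists in the high-fat comparison, with 11 members beyond 3 in size drawn at 3. Grey bars are members, red points members at an unadjusted p under 0.05, and black diamonds list medians; the 8 red points of fat synthesis all lie left of 0, and no member of any list passed after adjustment.

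Of the 41 gene lists, fat synthesis had the most members at an unadjusted p under 0.05. All 24 members were tested and none passed, while 8 (33.3%) were lower and none higher at that threshold, beside 1.83% and 1.68% of all tested genes. The groups did not overlap in 6 lower members and 1 higher one (beside 4.69% and 5.67%), the median log2 fold change was -0.31, and 21 of 24 lay below 0. Between BH-KO and BH-WT 7 of the 24 passed as lower and none as higher, beside 14.3% of all tested genes in each direction. The median in that comparison was -0.32, beside -0.31 in the high-fat one. The difference of effects passed in 3 members, all more positive in the high-fat pair, beside 3.45% of all tested genes. The summed level of the list was 5649 to 7802 CPM in BH-HF-KO and 8253 to 13705 CPM in BH-HF-WT, without overlap. Scd1, whose values follow, carried this separation, and without its CPM the ranges of the sum overlap. In 6 fits that each left out 1 high-fat library no member passed and none was higher at an unadjusted p under 0.05. The count of lower members was 5, 3 and 8 without BH-HF-KO replicates 1, 2 and 3 and 7, 4 and 9 without BH-HF-WT replicates 1, 2 and 3, and the median ran from -0.47 to -0.26.

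Srebf1 (ENSMUSG00000020538, chr11:60199089-60222581), the transcription factor that drives these enzymes, had 485, 321 and 389 CPM in BH-HF-KO and 579, 687 and 562 CPM in BH-HF-WT (log2 fold change -0.61 ± 0.20, unadjusted p = 0.00824). Each KO library lay below each WT library, and all 6 lay above the 10-week groups (50.1 to 70.5 CPM in BH-KO and 142 to 190.2 CPM in BH-WT). Acly, which makes cytosolic acetyl-CoA, had 171, 135 and 244 CPM and 286, 298 and 204 CPM (-0.52 ± 0.22). Acaca, the carboxylase of the committed step, had 61.7, 60.2 and 87.3 CPM and 108, 110.0 and 91.2 CPM without overlap (-0.56 ± 0.18, unadjusted p = 0.0066). Fasn, the fatty acid synthase, had 222, 154 and 449 CPM and 711, 731 and 298 CPM (-1.08 ± 0.36). In Acly and Fasn the groups overlapped, with replicate 3 the highest of BH-HF-KO and the lowest of BH-HF-WT. Scd1, the desaturase that makes oleate, had 1082, 1600 and 2156 CPM in BH-HF-KO and 4512, 5721 and 2971 CPM in BH-HF-WT without overlap (-1.45 ± 0.57, unadjusted p = 0.0258). Elovl6, which lengthens palmitate, had a log2 fold change of -0.38 ± 0.15, and Thrsp, an inducer of the pathway, of -0.97 ± 0.36. At 10 weeks Thrsp fell (-3.36 ± 0.36, adjusted p = 4.05e-05; difference of effects 2.39 ± 0.51, adjusted p = 0.0147). Lpin1 (ENSMUSG00000020593, chr12:16535669-16610966), the phosphatase that yields diacylglycerol, had 198, 230.3 and 246 CPM in BH-HF-KO and 353, 477 and 342 CPM in BH-HF-WT. Its log2 fold change of -0.80 ± 0.19 had an unadjusted p of 0.000808, beside 0.06 ± 0.19 at 10 weeks. The last enzymes of triglyceride synthesis had smaller values, with Dgat1 at -0.24 ± 0.16 and Dgat2 at -0.30 ± 0.20, both without overlap.

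**Figure D5:**
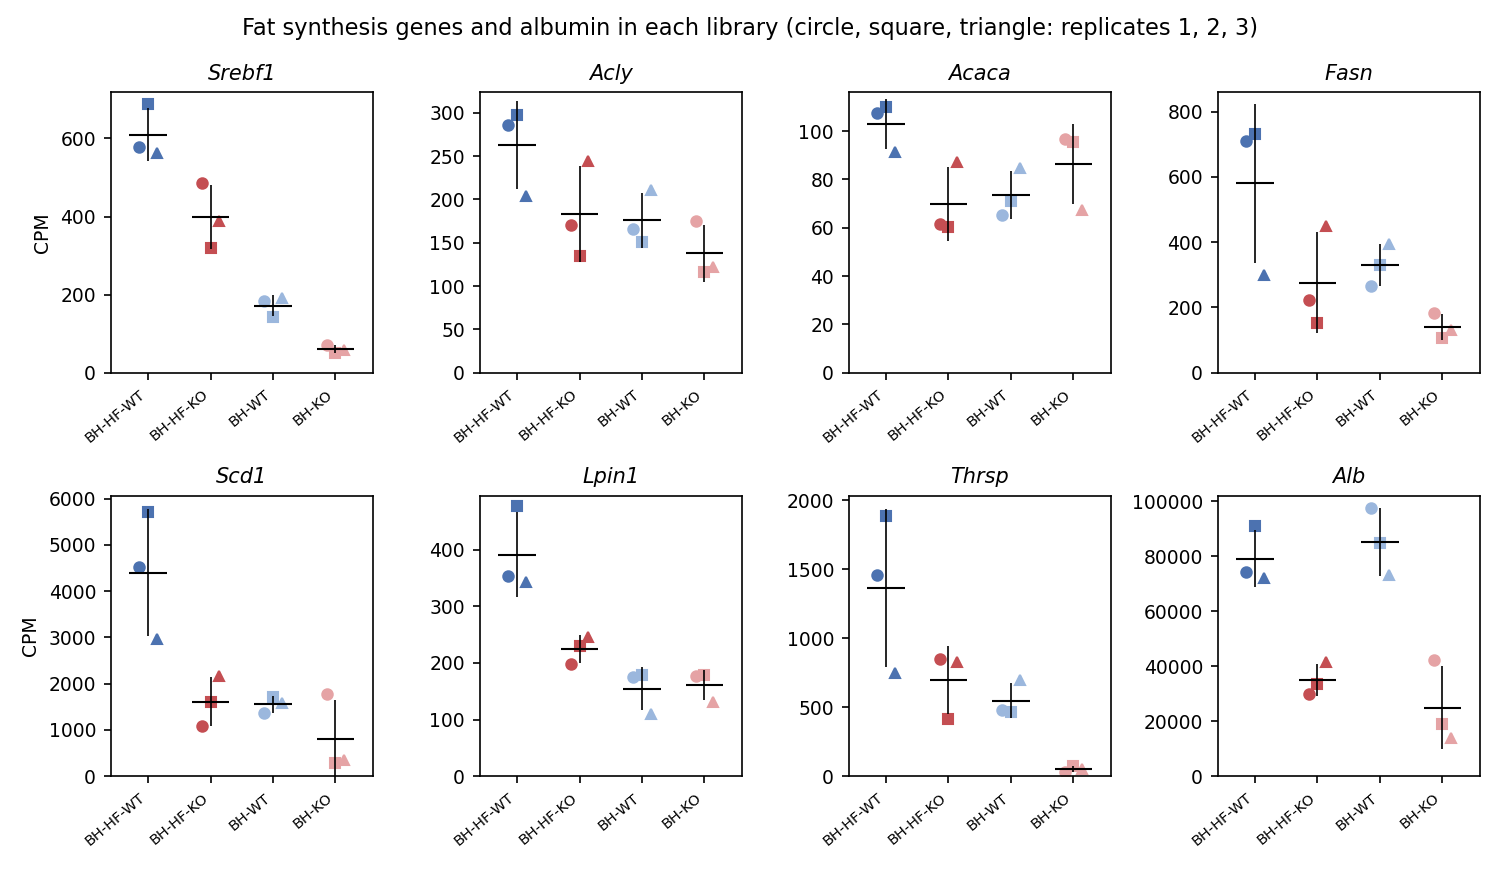
Expression (CPM, linear axes from 0) of 7 fat synthesis genes and of Alb in the 4 BH groups, with 1 symbol per library, a line at the group mean and a bar of 1 SD (n = 3), cut at 0. BH-HF-KO lies below BH-HF-WT without overlap for Srebf1, Acaca, Scd1, Lpin1 and Alb, while Acly, Fasn and Thrsp overlap, with BH-HF-WT replicate 3 the lowest of its group.

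Of 25 tested genes of lipid droplets and fatty acid uptake none passed and the median was -0.12. Lower at an unadjusted p under 0.05 were 3 (12%), beside 1.83% of all tested genes. Over the 6 fits without 1 high-fat library that count was 2 to 4 and the median -0.27 to -0.06. Pparg, the receptor that drives fat storage, had 5.75, 4.8 and 3.06 CPM in BH-HF-KO and 8.59, 7.99 and 7.87 CPM in BH-HF-WT (-0.86 ± 0.25, unadjusted p = 0.00382). Plin4, a droplet coat protein, had 4.72, 5.07 and 4.2 CPM and 14.9, 20.9 and 3.72 CPM (-1.50 ± 0.55), and Fabp4, a fatty acid carrier of fat cells and macrophages, 2.66, 2 and 3.06 CPM and 11.4, 4.87 and 3.01 CPM (-1.32 ± 0.50). The WT values of both were spread, with replicate 3 at the KO level and Fabp4 highest in BH-HF-WT replicate 1. Pnpla2, the triglyceride lipase, had 67.4, 66.1 and 58.2 CPM and 73.9, 75.4 and 75.6 CPM without overlap (-0.23 ± 0.13). Among 29 tested genes of fatty acid oxidation and ketogenesis no member had an unadjusted p under 0.05 and the median was -0.05. Cholesterol synthesis (25 genes, median 0.07) had no member at that threshold in either direction.

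In carbohydrate metabolism 2 of 25 genes (8%) were lower at an unadjusted p under 0.05, beside 1.83% of all tested genes. None passed, and over the same 6 fits 1 to 3 were lower. Igfbp1, a fasting-induced binding protein of insulin-like growth factors, had 3.1, 4.8 and 4.2 CPM in BH-HF-KO and 8.08, 13.1 and 23.6 CPM in BH-HF-WT (-1.87 ± 0.60, unadjusted p = 0.00715). At 10 weeks it rose instead (1.69 ± 0.51, adjusted p = 0.0254), and the difference of effects passed (-3.56 ± 0.78, adjusted p = 0.0183). Slc37a4, the glucose-6-phosphate carrier, had 199, 183 and 191 CPM and 228, 320.0 and 239 CPM without overlap (-0.46 ± 0.19). Pklr, the liver pyruvate kinase, had 188, 137 and 199.7 CPM and 268, 272 and 255 CPM, also without overlap (-0.60 ± 0.45). Slc2a2, the hepatocyte glucose carrier, had 528, 355 and 549 CPM and 507, 735 and 608 CPM, which overlapped (-0.37 ± 0.19), while at 10 weeks it fell (-2.12 ± 0.19, adjusted p = 4.54e-06).

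Nitrogen metabolism held 32 genes, of which none passed and 24 lay below 0 (median -0.14). At an unadjusted p under 0.05, 1 (3.1%) was higher and 3 (9.4%) lower, beside 1.68% and 1.83% of all tested genes. None of the lower 3 was at that threshold without BH-HF-KO replicate 2, BH-HF-KO replicate 3 or BH-HF-WT replicate 2, and the higher one was not without BH-HF-KO replicate 1. The higher one was Glul, the glutamine synthetase of hepatocytes around the central vein, with 1912, 1417 and 1408 CPM in BH-HF-KO and 1132, 1014 and 994 CPM in BH-HF-WT (0.59 ± 0.19, unadjusted p = 0.00799). Gpt, an alanine aminotransferase, had 368, 306 and 283 CPM and 381, 536 and 388 CPM (-0.45 ± 0.19). Hal, which starts histidine breakdown, had 501, 452 and 401 CPM and 535, 614 and 575 CPM (-0.35 ± 0.16), and Asl, of the urea cycle, 535, 489 and 554 CPM and 557, 816 and 625 CPM (-0.34 ± 0.16). None of these 4 overlapped between groups. The lists of liver zones were read beside them. Of 20 pericentral and Wnt-responsive genes 18 lay above 0 (median 0.22), with Glul and Lgr5, a receptor for R-spondins, which enhance Wnt signalling, at an unadjusted p under 0.05. Lgr5 had 15.9, 12 and 13.9 CPM in BH-HF-KO and 8.47, 7.87 and 10.2 CPM in BH-HF-WT (0.66 ± 0.29, unadjusted p = 0.0347). Of 16 periportal genes 11 lay below 0 (median -0.12) and Hal alone was at that threshold. Over the 6 fits without 1 high-fat library the medians ran from 0.18 to 0.33 and from -0.23 to -0.07. No pericentral gene was at that threshold without BH-HF-KO replicate 1, and no periportal gene without BH-HF-KO replicate 2 or BH-HF-WT replicate 2 or 3. The summed level of the periportal list was 17466 to 18384 CPM in BH-HF-KO and 18646 to 20362 CPM in BH-HF-WT, without overlap. Without Ass1, an abundant member, the ranges of that sum overlap. The summed level of the pericentral list overlapped (17897 to 19974 and 13061 to 18602 CPM).

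Transport and drug metabolism had few members at an unadjusted p under 0.05. The list of bile acid synthesis and transport had 20 tested genes, of which none passed. At that threshold 1 was lower (5%, beside 1.83% of all tested genes) and none higher. The groups did not overlap in 4 higher members (20%, beside 5.67%) and 1 lower one (5%, beside 4.69%). Slco1a4 (ENSMUSG00000030237, chr6:141805440-141856199), an organic anion carrier, had 21.1, 11.5 and 24.5 CPM in BH-HF-KO and 54.8, 113 and 53.1 CPM in BH-HF-WT (-1.95 ± 0.47, unadjusted p = 0.00111). It rose at 10 weeks to 538, 677 and 656 CPM in BH-KO (2.28 ± 0.45, adjusted p = 0.00342), and the difference of effects was -4.23 ± 0.65 (adjusted p = 0.00291). Abcb11, the bile salt export pump, was at 507 to 598 CPM in BH-HF-KO and 429 to 495 CPM in BH-HF-WT (0.30 ± 0.24). Cyp7b1, of the alternative bile acid pathway, was at 616 to 945 and 282 to 563 CPM (0.76 ± 0.71), also without overlap. Of 50 genes of drug metabolism none passed and 1 was higher at an unadjusted p under 0.05. This was Cyp2c39, with 1.03, 1.6 and 28.1 CPM in BH-HF-KO and 0.898, 1.62 and 0.716 CPM in BH-HF-WT, a difference that came from replicate 3 alone.

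The genes with the smallest unadjusted p in each direction, 10 higher and 10 lower, are named by rule and none passed. Osbpl3 (ENSMUSG00000029822, chr6:50293330-50456201), an oxysterol-binding protein, had the smallest p of all (0.000499), with 1.92, 0.801 and 1.59 CPM in BH-HF-KO and 7.44, 13.5 and 2.29 CPM in BH-HF-WT (-2.43 ± 0.56). Tead1, the DNA-binding partner of YAP, had 2.95, 3.2 and 3.74 CPM and 6.41, 6.74 and 5.58 CPM (-0.91 ± 0.23). Nampt, the rate-limiting enzyme of NAD salvage and a clock output, had 98.3, 95.5 and 112 CPM and 135, 157 and 145 CPM (-0.51 ± 0.15), and it also fell at 10 weeks (-1.15 ± 0.15, adjusted p = 8.25e-05). The other lower genes, beside Lpin1, Slco1a4 and Pparg, were Myadm (-0.61), Morc3 (-0.42), Rasal2 (-0.51) and Txndc16 (-0.76). Among the higher genes, Rpl34, a ribosomal protein gene with pseudogene copies that make its count uncertain, had 49.3, 54.4 and 51.6 CPM and 31.2, 34.7 and 31.2 CPM (0.68 ± 0.18). Rnf2, a Polycomb ubiquitin ligase, had 24.1, 24.7 and 25.7 CPM and 19.8, 19.1 and 20.3 CPM, a difference small in size and in spread (0.33 ± 0.09). Atoh8, a basic helix-loop-helix factor, had 12.2, 11.6 and 15.8 CPM and 4.87, 5 and 10.7 CPM (0.96 ± 0.28). The remaining higher genes were Zfp53 (0.79), Msantd4 (0.33), Myef2 (0.65), Lyrm2 (0.71), Magi1 (0.43), Bach2 (0.96) and Psmc4 (0.28).

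DESeq2 fitted to the 6 libraries alone, an alternative added after the data were seen, called 15 genes, 7 higher and 8 lower. Alb (log2 fold change -1.18, DESeq2 adjusted p = 1.01e-08), Slco1a4 (-1.96), Scd1 (-1.46), Lpin1 (-0.80), Igfbp1 (-1.89), Xlr3a (-1.38), Dusp1 (-1.05) and Ptp4a1 (-0.51) were the lower ones. Adh6-ps1 (2.46), Mup16 (1.52), Mup11 (1.18), Cyp2c68 (0.78), Mup12 (0.69), Rpl34 (0.67) and Cldn1 (0.64) were the higher ones, and of these Adh6-ps1 is a pseudogene and the Mup genes near-identical copies. In the edgeR fit of the same 6 libraries the adjusted p of these 15 genes ran from 0.721 to 0.946. The 15 calls thus belong to one tool and one set of libraries.

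Proteasome subunits differed little in size and in spread. All 31 had intervals within a 2-fold difference, none passed, and 25 lay above 0 (median 0.11). The groups did not overlap in 13 of them (41.9%), all higher in BH-HF-KO, beside 5.67% of all genes, and 3 were at an unadjusted p under 0.05. Psmc4, an ATPase of the regulatory particle, had 108, 96.3 and 97.8 CPM in BH-HF-KO and 80.3, 86.9 and 81.6 CPM in BH-HF-WT (0.28 ± 0.08, unadjusted p = 0.00456), while at 10 weeks it fell (-0.26 ± 0.08, adjusted p = 0.032). The 10 tested mitochondrially encoded genes all lay above 0 (median 0.24). Of these, 7 were higher without overlap (70%, beside 5.67% of all tested genes) and none was at an unadjusted p under 0.05. They are processed from shared long transcripts, and mitochondrial counts made up 8.26% to 9.92% of the BH-HF-KO libraries and 7.37% to 7.82% of the BH-HF-WT libraries. In contrast 37 nuclear genes of the respiratory chain had a median of -0.06. Among 34 genes of the unfolded protein response 24 lay above 0 (median 0.19). At an unadjusted p under 0.05, 2 (5.88%) were higher and 1 (2.94%) lower, beside 1.68% and 1.83% of all tested genes. Dnajb11, a chaperone of the endoplasmic reticulum, had 137, 154 and 132 CPM and 119.5, 88.6 and 113 CPM (0.40 ± 0.17), and Sdf2l1, its partner, 28.5, 43.8 and 24.3 CPM and 25.9, 12.9 and 19.2 CPM (0.73 ± 0.32), with BH-HF-KO replicate 2 the highest of both. Without that replicate no member of the list was at that threshold, and the same held without BH-HF-WT replicate 2, while without BH-HF-WT replicate 1 there were 5 higher members. The median ran from 0.11 to 0.28 over the 6 fits without 1 high-fat library.

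Of 19 tested immediate early genes, which respond within minutes to stimuli and to handling of tissue, none passed. Lower at an unadjusted p under 0.05 were 4 (21.1%), beside 1.83% of all tested genes. That count was 2 without BH-HF-KO replicate 2, BH-HF-KO replicate 3 or BH-HF-WT replicate 3 and 6 without BH-HF-WT replicate 2, and the median of -0.19 became 0.11 without BH-HF-WT replicate 1. Btg2, an antiproliferative gene, had 10.5, 14.4 and 6.69 CPM in BH-HF-KO and 36.3, 17 and 19.5 CPM in BH-HF-WT (-1.21 ± 0.36, unadjusted p = 0.00485), and its effect differed from the rise at 10 weeks (-2.38 ± 0.51, adjusted p = 0.0148). Dusp1, a MAP kinase phosphatase, had 12.8, 13.3 and 22.6 CPM and 37.2, 33.3 and 30.2 CPM (-1.04 ± 0.42). Egr1 had 2.51, 5.2 and 3.18 CPM and 11.4, 5.37 and 37.6 CPM (-2.30 ± 1.04), and Fos had 0.295, 0.667 and 0.227 CPM in BH-HF-KO and 3.46, 0.5 and 4.15 CPM in BH-HF-WT. Egr1 and Fos spread widely among the WT livers. The sources used here do not say how long tissue was held before freezing, and its part in these values was not tested.

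In the acute phase list 1 library carried the difference. Of its 31 genes none passed, 2 were higher at an unadjusted p under 0.05, 26 lay above 0 and the median was 0.38, while without BH-HF-KO replicate 2 the median was -0.43. Without BH-HF-KO replicates 1 and 3 in turn 6 and 8 members were higher, and without BH-HF-WT replicates 1 and 2 in turn 1 and 0. Saa2, a serum amyloid, had 55.8, 8699 and 189.9 CPM in BH-HF-KO and 272, 29.4 and 172 CPM in BH-HF-WT, and Saa1 106, 8150 and 191 CPM and 564, 83.2 and 415 CPM. Lcn2, a siderophore-binding protein, had 32.3, 1227 and 26.7 CPM and 80.3, 24.2 and 122 CPM, and Orm2, an orosomucoid, 24.6, 1192 and 32.2 CPM and 28.7, 14 and 101 CPM. In each, BH-HF-KO replicate 2 was the highest of the 6 libraries and the other KO libraries lay within the range of the WT libraries. Apcs, serum amyloid P, had the same order (62.4, 762 and 51.7 CPM and 57.6, 44.6 and 114 CPM). Saa2 passed in the test of the difference between effects (8.84 ± 2.08, adjusted p = 0.0442), and lost that call without BH-HF-KO replicate 2 (4.26, adjusted p = 0.157).

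Several markers of other cell types were highest in BH-HF-WT replicate 1. In bulk tissue fewer cells of a type and less RNA per cell cannot be told apart. Of 31 tested Kupffer cell and macrophage genes none passed, 27 lay below 0 and the median was -0.54, with a summed level of 182.6 to 614.1 CPM in BH-HF-KO and 292.4 to 710.5 CPM in BH-HF-WT. Marco, a scavenger receptor, had 6.34, 4.8 and 0.227 CPM and 46.4, 0.375 and 1.29 CPM, Adgre1 (F4/80) 3.1, 5.2 and 1.02 CPM and 22.3, 2.75 and 4.44 CPM, and Clec4f, a Kupffer cell lectin, 21.2, 33.4 and 6.58 CPM and 19.9, 15.7 and 28.6 CPM. The first 2 were highest in BH-HF-WT replicate 1, and Clec4f was not. Over 32 tested members of the list the median was -0.10 without that library and -0.19 without BH-HF-KO replicate 3. It was -0.92 without BH-HF-KO replicate 2 and -0.84 without BH-HF-WT replicate 2. Of 7 tested neutrophil genes 6 lay below 0, with S100a9 at 1.62, 1.73 and 0.34 CPM and 18.3, 0.5 and 1 CPM and Ngp at 0.148, 0.667 and 0 CPM and 15.9, 0.125 and 0.143 CPM, again highest in that library. The median of the 7 neutrophil genes tested with all libraries was -1.84. It was 0.80 over 8 genes tested without BH-HF-WT replicate 1 and -3.06 over 11 tested without BH-HF-KO replicate 2. These medians thus cover different sets of genes. The neutrophil sum of 27.7 to 1239.7 CPM in BH-HF-KO and 26.4 to 153.7 CPM in BH-HF-WT includes Lcn2, which is also an acute phase gene. T and NK cell genes were near the floor, with 5 of 24 tested and sums of 5.22 to 10.5 CPM in BH-HF-KO and 7.99 to 9.62 CPM in BH-HF-WT. The median was -0.44 for 15 B and plasma cell genes, -0.23 for 35 stellate cell and matrix genes, -0.13 for 25 endothelial genes and 0.20 for 11 cholangiocyte genes, and the summed levels of these 4 lists overlapped between groups. Over the 6 fits without 1 high-fat library these medians ran from -0.70 to 0.18, from -0.43 to 0.12, from -0.34 to -0.01 and from 0.03 to 0.34. The part of such cells in the values of the hepatocyte genes was not tested.

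In the remaining lists no member passed either. Of 25 p53 targets Mdm2, the ligase that limits p53, was higher (0.32 ± 0.11) and Btg2 lower at an unadjusted p under 0.05, with a median of 0.00. At 10 weeks 15 of the 25 rose (beside 14.3% of all tested genes), and the difference of effects passed in 6, or 13 without BH-KO replicate 1 (beside 6.1% and 21.1%). Of 38 tested cell cycle genes 1, Cenpe, a kinetochore motor, was lower at that threshold, at 0.148, 0 and 0 CPM in BH-HF-KO and 0.898, 0.25 and 0.143 CPM in BH-HF-WT, levels near the floor. The list had a median of -0.07, and 14 of its genes rose at 10 weeks (beside 14.3% of all tested genes). The difference of effects passed in 1 of the 38, or 12 without BH-KO replicate 1 (beside 6.1% and 21.1% of all tested genes). In a list of 17 heat shock chaperones, Hsp90aa1 (0.31 ± 0.13) and Stip1 (0.25 ± 0.12) were higher at that threshold, which neither reached without BH-HF-KO replicate 2 or 3 or BH-HF-WT replicate 2 or 3. Interferon response genes (40) had a median of -0.17 and no member at that threshold, but without BH-HF-KO replicate 2 the median was -0.42 and 8 were lower, without BH-HF-WT replicates 2 and 3 in turn 3 and 2 were lower, and without BH-HF-KO replicate 3 the median was 0.06. Inflammatory cytokines and chemokines had a median of -0.37 over 21 tested genes. With 22 tested it was -0.64 without BH-HF-KO replicate 2, -0.70 without BH-HF-WT replicate 2 and 0.37 without BH-HF-WT replicate 1. The median was 0.05 over 23 glutathione and NRF2 targets and 0.01 over 18 genes of iron handling. Sex-biased liver genes with the Mup cluster had a median of 0.23 over 27, and fetal liver genes 0.26 over 21, and in neither list did any interval lie within a 2-fold difference.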

How the data were processed

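Raw whole-number counts for each gene in 18 mouse liver libraries were deposited by the authors as a single table, without normalization. The aligner was STAR 2.6 and the build mm10, per the submitters' processing notes. The sources used here do not name the counter, its annotation or its use of strand, so paralogs, pseudogenes and overlapping or antisense genes are uncertain. Groups were taken from the labels. The members and gene lists were chosen with earlier results of these data known.

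Counts were compared in edgeR 4.0.16 (R 4.3.3): filterByExpr by group (minimum count 10) kept 13958 of 52636 genes, TMM factors scaled libraries, and all 18 libraries entered 1 fit with a mean for each group (12 residual degrees of freedom) with the robust quasi-likelihood F-test, two-sided. P-values were adjusted by Benjamini-Hochberg over all tested genes, with 0.05 as the threshold for a pass. Every log2 fold change is KO minus WT, with its Wald SE and 95% interval. The difference of effects is the high-fat contrast minus that at 10 weeks. Fitting all groups shares 1 estimate of spread, to which BH-KO replicate 1 contributes. Libraries held 6846471 to 9816124 counts. Floors of 3 counts cover counting error only.

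Named are the targeted genes, every core clock gene, the 10 genes of each direction with the smallest p (at least 5 CPM in 1 group, no overlap), up to 6 members of each of 41 lists by p, and the 8 largest differences of effects in each direction. Not every eligible gene is described, and some are not reported here. Coordinates are from GENCODE M21 (mm10) and promoters from RefSeq (GRCm38.p6). Alternatives were DESeq2 1.42.0, limma 3.58.1 (voom), other scaling, filters and thresholds, smaller fits, a replicate block, and leaving out each BH library. Of the fits without 1 BH library, the high-fat comparison was read only in those without a high-fat library. The gene filter was applied anew in each fit, so the tested members of a list could differ between fits. The same scripts were tested on simulated data.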

Additional observations from a re-analysis of the deposited data

Results flagged for a closer look

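The KO effect differed between the high-fat and the 10-week pair in 851 genes, by edgeR's test of the difference itself with Benjamini-Hochberg adjustment. The text gives that test for 36 of the genes that passed, and each value is the difference of log2 fold changes, high-fat minus 10-week. In 24 of them the call was kept in each of 12 fits that left out 1 BH library. Those with a more positive effect in the high-fat pair were Per3 (2.67), Nr1d1 (4.95), Nr1d2 (2.89), Dbp (4.44), Tef (1.97), Bhlhe41 (4.84), Ciart (2.97), Mup16 (8.32), Mup-ps13 (7.02), Mup11 (6.68), Rian (6.06), Meg3 (5.95), Thrsp (2.39), Slc2a2 (1.75) and Asl (1.28). Those with a more negative effect were Arntl (-4.87), Clock (-1.34), Cry1 (-3.46), Nckap5 (-7.14), Cdkn1a (-6.71), Grhl1 (-4.95), Gstm3 (-4.50), Slco1a4 (-4.23) and Btg2 (-2.38).

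The other 12 lost the call in at least 1 of the 12 fits. Igfbp1 (-3.56) lost it only without BH-HF-KO replicate 1 (adjusted p = 0.0555) and Psmc4 (0.54) without that library or BH-KO replicate 3 (up to 0.0548). Dgat2 (1.24) and Usp2 (1.66) lost it in 6 fits, Cry2 (0.67), Mup17 (8.14) and Npas2 (-5.91) in 8, Cyp2c55 (-5.41), Gria3 (-4.94), Mup15 (6.81) and Saa2 (8.84) in 9, and Plin4 (-2.92) in 10. The highest adjusted p in these fits was 0.372, for Npas2 without BH-HF-WT replicate 3. Age, diet and the time since tamoxifen differ together between the pairs of groups and cannot be told apart.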

How the results depend on the processing

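The count of 0 genes in the high-fat comparison was the same under DESeq2 size factors, upper-quartile scaling, no filter, a filter of 1 CPM in 3 libraries, DESeq2 and limma-voom on 18 libraries, an adjusted p under 0.10, the fits of 6 and of 12 libraries in edgeR, limma-voom on 6 libraries (added after seeing the data), and 5 of 6 fits without 1 high-fat replicate. Fits without 1 high-fat replicate gave 0 to 1 genes, and this count was not taken in fits without 1 of the 10-week libraries. The edgeR fit of the 6 libraries, in which BH-KO replicate 1 has no part, gave 0. DESeq2 on the 6 libraries alone, also added later, gave 15, of which 6 are in a gene list. There DESeq2 gave 474 genes no adjusted p. In the 6 fits without 1 high-fat library no member of any of the 41 lists passed (counts per list added after seeing the data). The count of 851 differences of effects became 1310 with DESeq2, 1577 at an adjusted p under 0.10, 431 in the fit of 12 libraries and 2862 without both BH-KO replicate 1 and BH-WT replicate 2, and without 1 replicate it ran from 353 to 3046 (407 and 564 without BH-HF-KO replicates 1 and 2, 480, 522 and 559 without BH-HF-WT replicates 1, 2 and 3, 3046, 423 and 353 without BH-KO replicates 1, 2 and 3, and 478 and 520 without BH-WT replicates 1 and 3). The cause of these shifts was not tested, apart from the looser threshold and the smaller number of libraries that 2 of them use. The median of the 10-week rises of 0.0058 became 0.054 over all genes that rose at 10 weeks, and 0 to 0.065 without 1 high-fat replicate. Same-numbered replicates did not deviate together (correlations of -0.17 to 0.04), so no pairing by number was seen. So few livers cannot exclude a pairing, and the labels do not say whether there was one. With the replicate block 0 genes passed in the high-fat comparison and 664 in the difference of effects. Values that changed sign were small or rested on 1 library, and none of those in the high-fat comparison had passed. Without 1 high-fat replicate the high-fat log2 fold change ran as follows: Arntl -0.35 to 0.41, Cry1 -0.61 to 0.19, Cry2 -0.14 to 0.029, Nr1d2 -0.11 to 0.11, Rora -0.13 to 0.013, Dbp -0.21 to 0.059, Hlf -0.22 to 0.23, Nfil3 -0.069 to 0.22, Bhlhe41 -0.11 to 0.54, Csnk1e -0.17 to 0.16, Wee1 -0.45 to 0.021, Saa1 -1.25 to 3.56, Saa2 -0.36 to 4.89, Apcs -0.34 to 2.52, Orm2 -0.75 to 4.29, Lcn2 -1.36 to 3.06, Marco -2.73 to 2.16, Ngp -6.09 to 0.91 and S100a9 -3.00 to 0.69. Without 1 BH replicate the difference of effects ran, by gene: Per2 -0.020 to 0.37, Rora -0.25 to 0.18, Bhlhe40 -0.020 to 0.51 and Scd1 -0.89 to 0.84. Nr1d2 in the high-fat comparison was -0.00312 with upper-quartile scaling, -0.0156 with no filter and -0.00688 in the fit of 12 libraries. Without both BH-KO replicate 1 and BH-WT replicate 2, the differences of Rora and Scd1 were 0.188 and 0.765. Differences smaller than the interval of a gene were not detectable with 3 livers per group.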
